A study of Drosophila melanogaster with 2 samples.

Results

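The regions described here are intergenic sites of E(spl)mβ-HLH chromatin immunoprecipitation signal that lie away from promoters. Overlapping peaks of the authors' IDR (irreproducible discovery rate) list, a method meant to keep peaks that rank alike in both replicates, were merged on 2L, 2R, 3L, 3R, X and the small arm 4. A region was kept where its summit, the point of highest signal, lay over 1 kb from the start of every protein-coding transcript (TSS) and outside every protein-coding gene in the Ensembl annotation. This gave 439 intergenic regions of 5206 regions in all, or 8.43% (95% Wilson interval 7.71 to 9.22). The other regions had their summit within 1 kb of a TSS (3370 promoter regions) or inside a gene further away (1397 gene body regions). The study profiled whole Drosophila melanogaster embryos of both sexes aged 0 to 24 hours, from 1 transgenic line whose E(spl)mβ-HLH protein carries GFP at its C terminus. The embryos formed 1 group with 2 biological replicates, numbered 1 and 3. A control entered the authors' peak calling and was not analysed here, so no conditions were compared. In the free-text label each sample is called an input control, while their assay title and antibody field name an immunoprecipitation of the factor, and every value below carries that conflict. How much of the E(spl) locus the inserted construct holds is not given in the sources used here, and whole embryos mix all cell types. The lists hold no read counts, so depth is unknown.

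The factor belongs to the bHLH-Orange transcriptional repressors, a family that also includes Hairy, and its gene is a direct target of Notch signalling. These proteins bind short DNA words such as CACGTG and CACGCG and recruit the corepressor Groucho to switch genes off. In flies, as in other animals, DNA between genes holds enhancers and silencers that act on promoters at a distance, and it also holds genes for long noncoding RNAs and microRNAs with promoters of their own.

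The sequences of 9 summits are shown because the results below return to them. Each gives the summit base and 100 bp on either side of it on the plus strand, read from RefSeq's dm6, named by the flanking protein-coding genes. Capitals mark any of the 10 words searched, on either strand. The first set holds the strongest intergenic regions with CACGTG or CACGCG within 100 bp of the summit, shown for the place of the word.
hry to SrpRbeta, chr3L:8696597-8696797: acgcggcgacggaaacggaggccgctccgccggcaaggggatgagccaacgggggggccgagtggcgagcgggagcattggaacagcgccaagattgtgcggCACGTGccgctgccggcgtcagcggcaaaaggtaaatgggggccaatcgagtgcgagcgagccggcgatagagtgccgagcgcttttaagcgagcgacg
CG5290 to Eip75B, chr3L:17949230-17949430: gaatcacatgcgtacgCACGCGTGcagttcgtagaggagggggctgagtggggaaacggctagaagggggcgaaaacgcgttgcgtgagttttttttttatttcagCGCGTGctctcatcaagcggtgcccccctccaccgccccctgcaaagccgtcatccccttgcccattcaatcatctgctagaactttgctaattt
Hacd1 to Rh5, chr2L:12003300-12003500: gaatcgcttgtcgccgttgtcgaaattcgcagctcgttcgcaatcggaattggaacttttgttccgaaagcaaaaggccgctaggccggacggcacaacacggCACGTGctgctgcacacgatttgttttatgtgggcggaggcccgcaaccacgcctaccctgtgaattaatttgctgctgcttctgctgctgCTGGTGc
Ids to sty, chr3L:3384430-3384630: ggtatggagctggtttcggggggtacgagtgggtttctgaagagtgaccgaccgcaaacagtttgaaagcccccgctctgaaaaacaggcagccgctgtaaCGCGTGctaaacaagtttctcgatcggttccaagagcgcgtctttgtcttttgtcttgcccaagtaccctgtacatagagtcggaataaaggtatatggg
CG42258 to Cpr11A, chrX:12480289-12480489: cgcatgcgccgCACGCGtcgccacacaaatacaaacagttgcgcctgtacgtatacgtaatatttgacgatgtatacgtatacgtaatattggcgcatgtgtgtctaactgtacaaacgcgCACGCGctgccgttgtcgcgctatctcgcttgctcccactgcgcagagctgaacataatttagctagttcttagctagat
In all 5 of these windows an E(spl) word began within 21 bp of the summit. CACGTG began 2 bp to the right of the summit between hry and SrpRbeta and 3 bp to the right of it between Hacd1 and Rh5. CACGCG, read on the minus strand, began 1 bp to the right of the summit between Ids and sty and 6 bp to the right of it beside Eip75B, where 2 further, overlapping matches began 84 and 82 bp to the left. It began 21 bp to the right of the summit between CG42258 and Cpr11A, where the same word also occurred 89 bp to the left. The second set holds other regions that were among the strongest of all or among the strongest inside a noncoding gene, shown because they hold neither word.
CG4004 to Paics, chrX:12751235-12751435: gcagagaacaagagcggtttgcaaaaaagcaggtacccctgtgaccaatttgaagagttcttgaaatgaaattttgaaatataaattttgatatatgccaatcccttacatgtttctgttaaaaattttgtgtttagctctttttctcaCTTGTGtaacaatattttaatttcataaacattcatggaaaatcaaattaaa
E(spl)mbeta-HLH to E(spl)malpha-BFM, chr3R:26008438-26008638: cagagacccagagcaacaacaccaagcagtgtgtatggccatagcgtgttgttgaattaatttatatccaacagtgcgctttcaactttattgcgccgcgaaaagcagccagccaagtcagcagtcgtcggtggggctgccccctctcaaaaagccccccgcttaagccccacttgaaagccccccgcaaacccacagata
NimC3 to hll, chr2L:14023980-14024180: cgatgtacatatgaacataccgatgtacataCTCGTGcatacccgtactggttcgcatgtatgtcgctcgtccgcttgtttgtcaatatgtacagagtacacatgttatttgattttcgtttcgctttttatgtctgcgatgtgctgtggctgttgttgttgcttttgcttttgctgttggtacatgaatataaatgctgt
E(spl)mgamma-HLH to E(spl)mbeta-HLH, chr3R:26004421-26004621: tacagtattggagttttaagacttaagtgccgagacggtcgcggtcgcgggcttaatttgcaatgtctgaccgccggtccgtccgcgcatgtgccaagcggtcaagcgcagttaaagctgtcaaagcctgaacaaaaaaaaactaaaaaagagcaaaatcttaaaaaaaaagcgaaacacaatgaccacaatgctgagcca
Of these 4 windows, 2 held 1 match each to CACNAG, the N-box, at 49 bp to the right of the summit between CG4004 and Paics and 69 bp to its left between NimC3 and hll. The other 2 windows, both beside E(spl)mbeta-HLH, held none of the 10 words.

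The intergenic regions covered most of the range of signal in the list. Signal is the authors' value for a peak within its own list and is comparable only within that list. The pooled signal of intergenic regions had a median of 293.8 (quartiles 218.8 and 425.3, highest 4509.7), against 310.3 for promoter regions (237.7 and 460.9, highest 5401) and 274.7 for gene body regions (219.0 and 386.6, highest 5177). Intergenic regions made up 9 of the 100 strongest regions and 91 of the 1000 strongest. Among the intergenic regions 20.7% belonged to the 1000 strongest, against 21.4% of promoter and 13.5% of gene body regions. Their median width was 348 bp, against 395 bp for promoter and 358 bp for gene body regions. More than 1 peak was joined in 54 of them (12.3%), against 10.1% of promoter, 8.30% of gene body and 9.83% of all regions. These differences were not tested, since regions of the same libraries are not replicates.

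**Figure D1:**
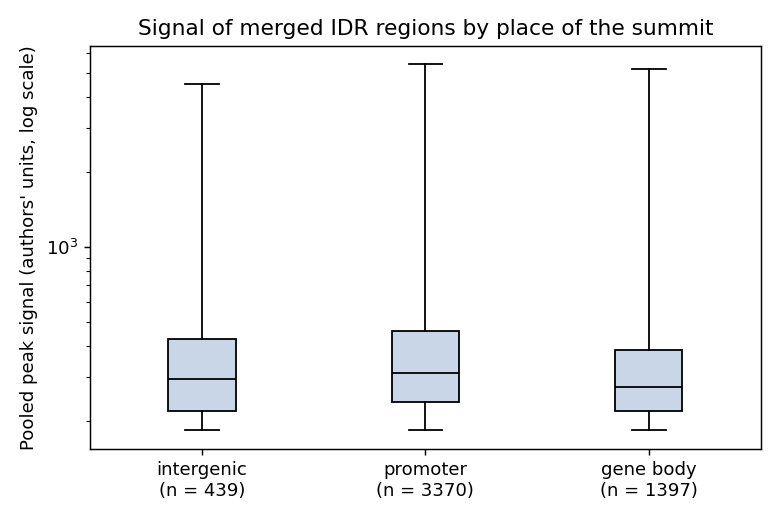
Pooled peak signal (authors' units, log scale) of intergenic, promoter and gene body regions; the line is the median, the box the quartiles and the whiskers the lowest and highest region. The medians are 293.8, 310.3 and 274.7, and the boxes overlap over most of their height.

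The IDR list is built to favour peaks found in both replicates, so presence in each replicate's list describes the members and is no independent support for them. Some peak of the replicate's 30000 lay on the region in both replicates for 431 of 439 intergenic regions (98.2%), against 98.3% of promoter and 98.9% of gene body regions. Both replicate lists hold 30000 entries, many more than the IDR list, so weak entries count here too. A stricter count took only each replicate's 5744 strongest peaks, as many as the IDR list holds. By that count 315 intergenic regions (71.8%, 95% Wilson interval 67.4 to 75.8) had a peak in both, against 80.7% of promoter regions, 73.2% of gene body regions and 77.9% of all regions. The strong peaks of replicate 1 reached 383 intergenic regions (87.2%) and those of replicate 3 reached 364 (82.9%).

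Over the 431 intergenic regions listed in both replicates the signals of replicates 1 and 3 had a Spearman rho of 0.73 and a Pearson r of 0.84 on the log2 scale. For 3314 promoter regions rho was 0.76 and for 1381 gene body regions it was 0.69. These values describe regions that share 1 pair of libraries and a control and that were selected through the IDR list for agreement of the replicates. The places of a region in the 2 replicate lists were within a factor of 2 of each other for 350 of the 431. Of the rest, 46 stood higher in replicate 1 and 35 higher in replicate 3. The 20 strongest intergenic regions reached no place below 398 in replicate 1 and none below 307 in replicate 3.

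Few regions were missing from a replicate's list, and they were named by their flanking genes. No peak was listed in replicate 3 for 6 regions, of which the strongest lay between dati and lgs on arm 4, with a pooled signal of 613.3 and place 837 in replicate 1. Next came the regions between CG13321 and Psc (pooled signal 492.5, place 987) and between CG13786 and Wnt4 (380.2, place 1870). No peak was listed in replicate 1 for 2 regions, between CG7824 and CG15514 (312.4, place 3258 in replicate 3) and between COX7AL2 and CG31668 (234.6, place 4686).

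**Figure D2:**
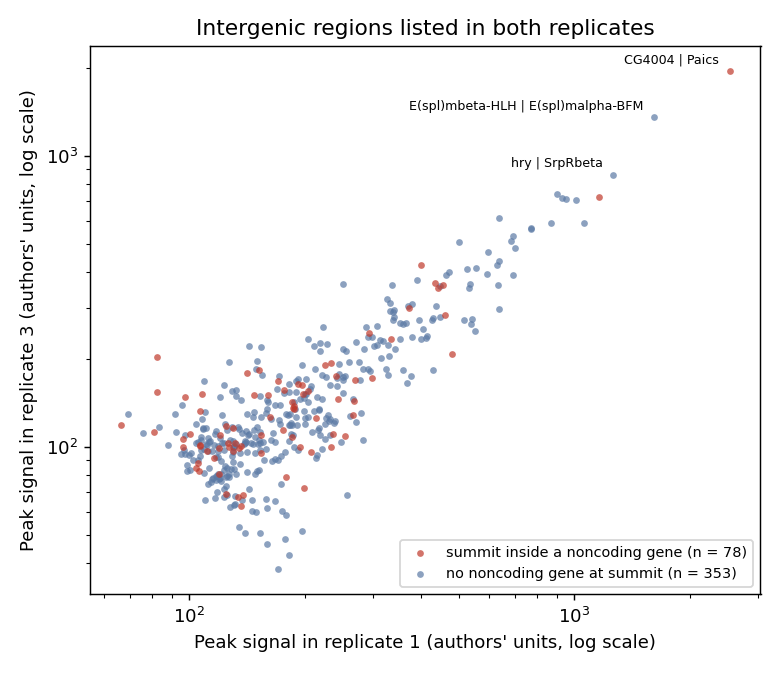
Peak signal of each intergenic region in replicate 1 (x axis) and replicate 3 (y axis), both in the authors' units on log scales, for the 431 regions listed in both; red points have their summit inside a noncoding gene. The points spread most at low signal, and the 3 named regions lead in both replicates.

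The strongest intergenic region lay on arm X at chrX:12750520-12752742, between the 3′ ends of CG4004 and Paics, an enzyme of purine synthesis. Its pooled signal was 4509.7, and its signals were 2536 in replicate 1 and 1963 in replicate 3, places 4 and 5 in these lists. The summit fell inside the noncoding gene lncRNA:Vinr, 5018 bp from the nearest protein-coding TSS. Another region of the same gap lay in lncRNA:CR44619 with a pooled signal of 737.5.

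The third strongest lay downstream of hry, which encodes Hairy, a pair-rule repressor of the same protein family as E(spl)mβ-HLH. Its pooled signal was 2136, with 1261 in replicate 1 (place 33) and 864.0 in replicate 3 (place 44). The summit stood 17444 bp beyond the end of hry and 20742 bp from its nearest start, in a gap that ends at SrpRbeta, which encodes a subunit of the signal recognition particle receptor. The fourth, between NimC3, a haemocyte receptor of the Nimrod family, and hll, had 1857 in the pooled list, 1159.5 in replicate 1 (place 44) and 721.7 in replicate 3 (place 72). Its summit was 19 bp from the start of lncRNA:CR31840.

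Regions 5 and 6 lay on arm 2R. That between Aldh-III and wech had pooled signal 1712, with 1011 in replicate 1 and 704.5 in replicate 3. The summit was 93 bp beyond the 3′ end of wech, whose product links integrins to the cytoskeleton at muscle attachments. The region upstream of Psc, a subunit of Polycomb repressive complex 1, had 1660.0, with 902.5 in replicate 1 and 739.6 in replicate 3. Its summit was 4204 bp from the Psc start and 169 bp from the start of lncRNA:CR44339. Region 11, at 1336, lay downstream of Su(z)2, a homologue of Psc on the same arm, in the gap that ends at CG13323.

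Region 7 lay 1623 bp beyond the 3′ end of Eip75B, a nuclear receptor gene induced by the moulting hormone ecdysone, with 1649 pooled, 948.2 in replicate 1 and 714.1 in replicate 3. Regions 8 and 9 both lay upstream of chinmo, a zinc-finger gene of neuronal temporal identity, at 12399 and 7770 bp from its TSS. Their pooled signals were 1637 and 1625, with 1058 and 928.7 in replicate 1 and 589.0 and 715.6 in replicate 3, so their order differed between the replicates.

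The next 11 regions had pooled signals between 994.2 and 1453. They lay between Cyt-c1L and eEF1gamma, Su(z)2 and CG13323, CG9922 and foxo, mtSSB and tara, blw and CycB, Ids and sty, CG42258 and Cpr11A, Sol1 and Cyp9f2, Dip-B and tal-2A, and, with 2 regions, Hacd1 and Rh5. The summit between Cyt-c1L and eEF1gamma was 122 bp from the start of lncRNA:CR31044. The region 3349 bp upstream of foxo, the forkhead factor of insulin signalling, had 1317 pooled, with 770.2 in replicate 1 and 567.5 in replicate 3. That 1131 bp upstream of tara, a Trithorax-group gene, had 1249.7 pooled, with 638.7 and 614.1. The region between Ids and sty, which encodes the receptor tyrosine kinase antagonist Sprouty, had 1175 pooled, with 701.9 and 483.4, and its summit stood 16623 bp beyond the 3′ end of sty. The 2 regions between Hacd1 and Rh5, a rhodopsin gene, had 1232 and 1032.

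The factor's own locus held 5 intergenic regions within 5 kb of the E(spl) complex on arm 3R, which encodes 7 bHLH repressors and several Bearded-family proteins. The region at chr3R:26007948-26009527 in the gap shared by the divergent genes of the factor itself and of E(spl)malpha-BFM had a pooled signal of 2976, with 1610.2 in replicate 1 (place 11) and 1359 in replicate 3 (place 10). Its summit stood 2515 bp from the E(spl)mbeta-HLH start and 2355 bp from that of E(spl)malpha-BFM. On the other side of E(spl)mbeta-HLH, towards E(spl)mgamma-HLH, lay 2 regions of nearly the same pooled signal, 811.7 (456.2 in replicate 1 and 360.4 in replicate 3) and 805.0 (448.9 and 356.3). The first of these had its summit inside lncRNA:CR45038. The region between E(spl)m2-BFM and E(spl)m3-HLH had 807.2, with 398.9 in replicate 1 and 422.2 in replicate 3, inside lncRNA:CR43644. The weakest, between E(spl)malpha-BFM and Kaz-m1, had 445.5, with 259.6 and 195.8, and was the only one of the 5 with an E(spl) word within 100 bp. Of the promoter regions there, that of E(spl)mbeta-HLH had 5401, the highest of the whole list, and those of gro, E(spl)malpha-BFM and Kaz-m1 had 760.5, 403.5 and 310.5. No intergenic region lay between E(spl)m3-HLH and gro. Since the extent of the inserted construct is not given, any signal from it and signal from the native locus cannot be told apart here.

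**Figure D3:**
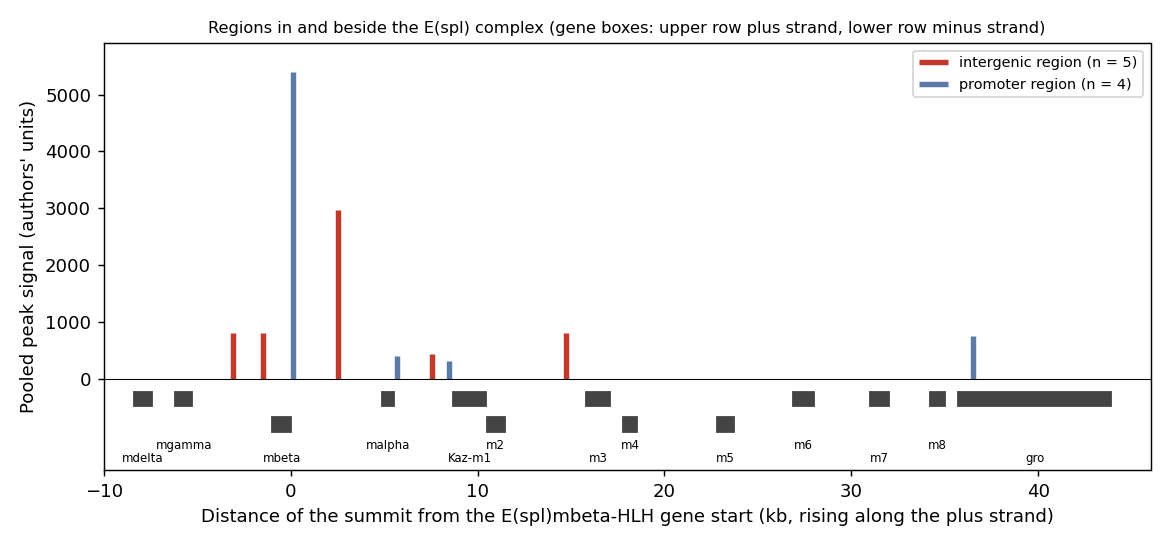
Pooled peak signal (y axis, authors' units) of the 5 intergenic and 4 promoter regions in and within 5 kb of the E(spl) complex, by distance of the summit from the E(spl)mbeta-HLH gene start (x axis, kb), with gene boxes below the axis. The intergenic region to the right of the E(spl)mbeta-HLH start reaches 2976 and the other 4 lie between 445.5 and 811.7.

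The bases that meet the same distance terms came to 37.9 Mb, or 28.3% of the 6 arms, and held 11.6 intergenic regions per Mb. Arm 3L had 121 regions (11.1% of its regions, 13.0 per eligible Mb), 2L had 91 (9.65%, 13.0 per Mb) and 3R had 91 (7.60%, 11.6 per Mb). Arm X had 67 (7.49%, 11.3 per Mb), 2R had 66 (6.21%, 8.80 per Mb) and arm 4 had 3. The median distance of an intergenic summit from the nearest protein-coding TSS was 3977 bp (quartiles 1987 and 9618). It was over 5 kb for 186 regions (42.4%), over 10 kb for 105 (23.9%) and over 20 kb for 22 (5.01%), with 59519 bp the longest. Just inside the distance limit, a region lay 1009 bp from CG16756 (pooled signal 227.0) and another the same distance from CG5326 (233.2), and the one just outside it lay 999 bp from CG9498 (651.9).

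The 287 gaps that held an intergenic region had a median length of 8302 bp. The distance terms leave out most short gaps, so gap length was not free of the rule. Gaps over 2 kb had median lengths of 6792 bp for divergent, 9461 bp for convergent and 6958 bp for tandem neighbours. The flanking genes were divergent, with both starts facing the region, for 135 regions (30.8%), convergent for 119 (27.1%) and tandem for 185 (42.1%). The TSS distance spares short convergent gaps, and of the 37 regions in gaps of up to 2 kb 25 were convergent, 12 tandem and 0 divergent. Of the 402 regions in gaps over 2 kb, 33.6% lay in divergent, 23.4% in convergent and 43.0% in tandem gaps. Among all 2591 gaps over 2 kb, divergent pairs made up 28.9%, convergent pairs 18.5% and tandem pairs 52.6%, and long gaps can hold several regions. The nearest gene end was a 3′ end for 230 regions (52.4%), and for 91 regions (20.7%) a 3′ end lay within 1 kb. The rule bars starts within 1 kb, so a gene end that close could only be a 3′ end. Both counts therefore depend on the rule. The nearest TSS belonged to a flanking gene for 431 regions. Neither flanking gene had a promoter region in the IDR list for 162 regions, 1 had it for 158 and both had it for 119. Gene by gene, 38.2% of the flanking genes and 27.8% of all protein-coding genes had one, a difference that was not tested. Most flanking genes (482 of 542) border a gap over 2 kb, and the share among all genes that border such a gap was not computed. Another region of any class lay within 5 kb of 273 intergenic regions (62.2%), against 65.5% of promoter and 68.2% of gene body regions.

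Many intergenic regions came in runs. The 439 regions lay in 287 gaps, of which 222 held 1 region and 65 held the other 217. The 17 gaps with 4 or more regions held 109 of them. The gap of 37097 bp between RFeSP, which encodes the Rieske protein of the respiratory chain, and chinmo held 12 regions with pooled signals of 198.5 to 1637. The gap of 20400 bp between mtSSB and tara held 11 regions at 225.3 to 1249.7, and the gap of 39695 bp between hry and SrpRbeta held 10 at 190.9 to 2136. The gap of 38387 bp between CG5290 and Eip75B held 7 at 197.0 to 1649, and that between scyl and Dyro held 7 up to 545.6. An E(spl) word lay within 100 bp of the summit at 4 of the 10 regions between hry and SrpRbeta and 3 of the 7 between CG5290 and Eip75B. It did so at 0 of 12 between RFeSP and chinmo, 0 of 11 between mtSSB and tara and 0 of 7 between scyl and Dyro. These counts take whole gaps, and some of the regions lie nearer to the other flanking gene than to chinmo, tara or Eip75B. Over all intergenic regions the share was 10.3%, against 11.7% of all regions.

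**Figure D4:**
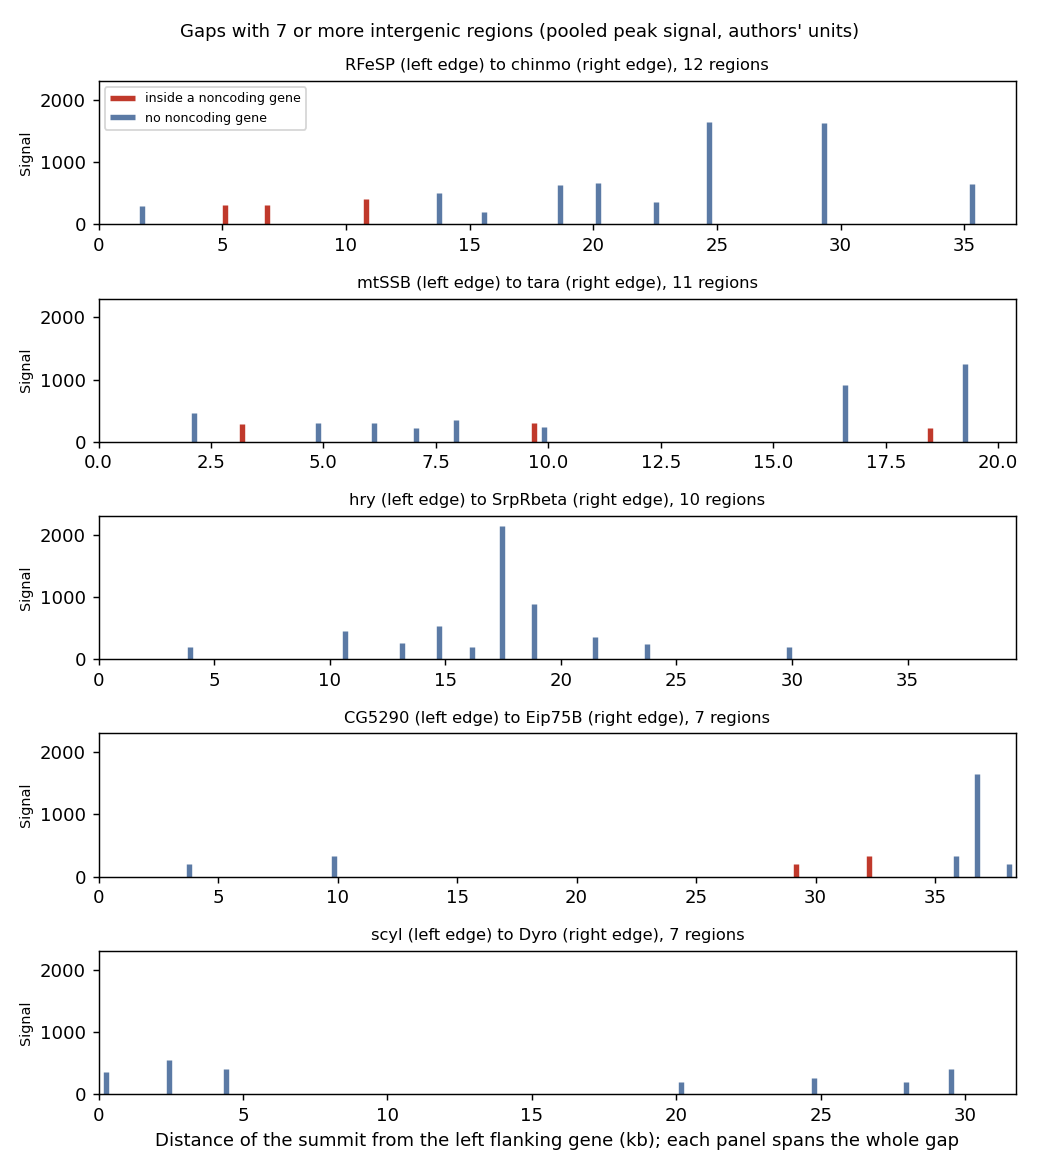
Pooled peak signal (y axis, authors' units) of each intergenic region in 5 gaps with 7 or more regions, by distance of its summit from the left flanking gene (x axis, kb, each panel spans its gap); red marks a summit inside a noncoding gene. In the gaps that border chinmo, hry and Eip75B 1 or 2 regions stand above 1600 among weaker ones, while the 7 regions between scyl and Dyro all stay at or below 545.6.

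Noncoding genes lay at 78 intergenic summits (17.8%, 95% Wilson interval 14.5 to 21.6), against 3.38% of promoter summits, 2.51% of gene body summits and 4.36% of all summits. The eligible bases lay inside noncoding genes for 7.11% of their length. The difference was not tested. Some noncoding genes held several of these summits, which the interval does not allow for. Of the 78, 77 were in genes annotated as ncRNA and 1 in a tRNA gene, tRNA:Glu-CTC-2-1 on arm 2R, with a pooled signal of 203.7. No intergenic summit lay in an annotated transposable element, and the upper bound of the 95% Wilson interval is 0.867%. Over all regions 5 of 5206 summits (0.096%) did, a share that this interval holds. The strongest were in lncRNA:Vinr (4509.7), lncRNA:CR31840 (1857), lncRNA:CR45038 (811.7), lncRNA:Hsromega (811.0) and lncRNA:CR43644 (807.2). The region in lncRNA:Hsromega, a heat-inducible nuclear RNA that organises omega speckles, lay between SIFaR and aus, and a neighbouring region in it had 789.5. Signal at noncoding genes had a median of 289.2 (n = 78), against 294.7 at the other intergenic summits (n = 361).

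Starts of noncoding genes were close to some summits. A noncoding start lay within 100 bp of 23 intergenic summits (5.24%), within 250 bp of 48 (10.9%) and within 1 kb of 106 (24.1%). Of the eligible bases 0.912%, 2.11% and 6.94% lay within these distances. At promoter summits the shares were 1.60%, 3.15% and 9.11%, and at gene body summits 0.501%, 1.57% and 4.58%. A summit inside a noncoding gene or within 1 kb of a noncoding start was found for 144 intergenic regions (32.8%). That combined share was not computed for the other regions or for the eligible bases, so nothing is read from it.

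A microRNA gene lay within 1 kb of 11 intergenic summits (2.51%, 95% Wilson interval 1.40 to 4.43), against 0.475% of promoter summits, 0.429% of gene body summits and 0.290% of the eligible bases. The 11 regions belonged to 10 microRNA genes. The strongest was 955 bp from mir-14, a microRNA that represses cell death, between CG1888 and Or45b, with a pooled signal of 729.0, 391.0 in replicate 1 and 374.7 in replicate 3. The region 736 bp from mir-282 had 682.4, with 481.2 and 208.7. The region 805 bp from mir-8, a growth regulator, had 353.2, with 196.3 and 163.8, and that 267 bp from mir-34, linked to ageing in the brain, had 352.6, with 192.0 and 164.6. The others lay near mir-4912, mir-275, mir-4959, mir-92b and mir-87, at pooled signals of 190.9 to 401.8, and near mir-ban, the bantam microRNA that drives growth and blocks cell death, at 327.4 and 317.6. These differences from other regions and from the eligible bases were not tested.

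**Figure D5:**
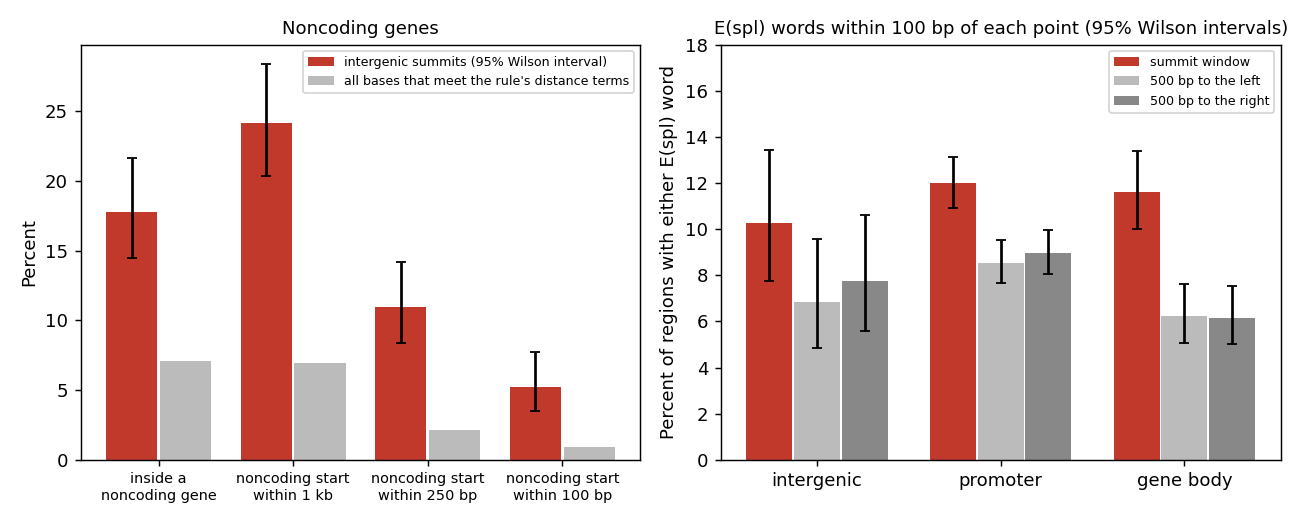
Left, percent of intergenic summits (red, 95% Wilson intervals) and of all bases that meet the same distance terms (grey) inside a noncoding gene or near a noncoding start. Right, percent of intergenic, promoter and gene body regions with CACGTG or CACGCG within 100 bp of the summit and of points 500 bp to either side. Intergenic summits stand at 17.8% against 7.11% of the eligible bases for noncoding genes, and at 10.3% against 6.83% and 7.74% in the side windows for the words.

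The 10 words were searched on both strands, and no word contains another. CACGTG or CACGCG lay within 100 bp of 45 intergenic summits (10.3%, 95% Wilson interval 7.75 to 13.4). The windows of the same length centred 500 bp to the left and right of these summits held either word at 30 (6.83%) and 34 (7.74%) of the 439 sites. Either word was present at 12.0% of promoter summits, 11.6% of gene body summits and 11.7% of all summits. The side windows held either word at 8.55% and 8.96% for promoter, 6.23% and 6.16% for gene body and 7.78% and 8.11% for all regions. The intervals of the intergenic summits and of their side windows overlap, but these windows belong to the same sites. Overlap of separate intervals does not measure their difference, which was not tested. CACGTG alone was found at 14 intergenic summits (3.19%), against 4.01% of all summits, and CACGCG at 31 (7.06%), against 8.16%. The centre of the nearest E(spl) word stood a median 25.5 bp from the intergenic summit (n = 45), against 38.5 bp from the centre of their side windows (n = 64), 47.5 bp from the promoter summits (n = 404) and 37.0 bp from the gene body summits (n = 162). Intergenic regions with an E(spl) word had a median pooled signal of 317.6 (n = 45), against 288.9 for those without (n = 394).

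Of the other 8 words, 7 were found at a smaller share of intergenic summits than of all summits, and these differences were not tested. Promoter regions make up 3370 of the 5206 regions and are left out of the intergenic regions by the rule. The gene body shares and the counts in the left and right side windows of the intergenic summits are therefore given too. CACNAG was found at 92 intergenic summits (21.0%), against 22.7% of all and 18.8% of gene body summits, and the side windows held it at 84 and 91 sites. CAGCTG, an E-box bound by other bHLH factors, was found at 24 (5.47%), against 12.3% of all and 9.66% of gene body summits (side windows 31 and 34). GTGGGAA, the word of Su(H), the DNA-binding protein of the Notch pathway, was found at 7 (1.59%). It was at 2.07% of all and 2.08% of gene body summits (side windows 14 and 9). CAGGTAG, the word of the early activator Zelda, was at 5 (1.14%), against 0.749% of all and 1.00% of gene body summits (side windows 6 and 2). GAGAGAG, bound by GAGA factor, was at 14 (3.19%), against 6.09% of all and 5.65% of gene body summits (side windows 21 and 11). The core promoter words of DREF, TATCGATA, and of M1BP, GGTCACACT, were at 2 (0.456%) and 1 (0.228%), against 3.98% and 2.07% of all. At gene body summits they were likewise rare, at 0.143% and 0%. The side windows held TATCGATA at 3 and 1 sites and GGTCACACT at 0 and 0. GGTTCGA, the start of the internal promoter box of tRNA genes, was at 4 (0.911%), against 1.42% of all and 1.00% of gene body summits (side windows 8 and 3). A word is a match of letters, not a bound site. The median GC content of the intergenic windows was 38.3%, against 40.8% at promoter summits and 38.3% at gene body summits, and the part of GC content in these counts was not tested.

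Flanking genes were read against 13 lists. Over all protein-coding genes 542 of 13945 (3.89%) flanked an intergenic region, as did 12.2% of the 3937 genes that border a gap over 2 kb. Of the 281 genes of the 11 developmental lists together, 32 (11.4%) flanked a region, as did 17.1% of the 187 that border a gap over 2 kb. These genes flanked 49 regions, 11.2% of the intergenic regions (95% Wilson interval 8.55 to 14.5), while gaps that border them hold 11.2% of the eligible bases. The regions flanked by developmental genes had a median pooled signal of 321.6 (n = 49), against 288.5 for the rest (n = 390).

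In the E(spl) complex 6 of 12 genes flanked a region, those named above. Among 7 other bHLH-Orange repressors and gro, hry and Sidpn did so, with 11 regions. In the Notch pathway, numb, whose product antagonises Notch, did so among 24 genes, with 1 region at 698.5 next to Gdi. Among proneural and other bHLH factors net, Oli and dysf did (3 of 28), the strongest at 307.3. Homeodomain genes contributed abd-A, exex, hth, nub and vvl (5 of 73), the strongest at 522.8 beside the Hox gene abd-A. Forkhead, T-box and Sox genes contributed foxo, bin, fkh, CHES-1-like and org-1 (5 of 33), the strongest at 1317. The signalling genes sty, fz, Wnt4, dpp and fz3 did (5 of 48), the strongest at 1175. Eip75B was the only one of 24 ecdysone genes and nuclear receptors, with 7 regions.

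The smaller groups had 1 or 2 members each. The segmentation gene ci, the transcription factor of the Hedgehog pathway, flanked a region at 292.1, and the neuroblast gene Imp, an RNA-binding protein, one at 264.8. The GATA factor genes srp and GATAe flanked 1 region between them at 321.6. Outside development, 7 of 93 ribosomal protein genes flanked 8 regions, the strongest at 351.1 between Prx2 and RpS15Aa. Of 179 odorant, gustatory and ionotropic receptor genes 6 did, the strongest being Or45b at 729.0, the region near mir-14. Of the genes that border a gap over 2 kb, 33.3% of ribosomal protein genes and 7.79% of receptor genes flanked a region. Among the developmental lists that share was 7.35% for homeodomain (5 of 68), 5.26% for segmentation (1 of 19), 9.09% for neuroblast (1 of 11) and 7.69% for ecdysone genes (1 of 13). Over all bordering genes it was 12.2%. The share was 14.3% for the Notch pathway (1 of 7) and 18.5% for forkhead, T-box and Sox genes (5 of 27). For proneural and other bHLH genes it was 21.4% (3 of 14), and for the signalling genes 27.8% (5 of 18). In the remaining lists it was 6 of 11 genes of the E(spl) complex, 2 of 6 other bHLH-Orange genes and 2 of 4 GATA genes. Where a share rests on 1 gene, that gene decides which side of 12.2% the list falls on, and no difference was tested.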

How the data were processed

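The peak lists of 2 samples were read as the authors deposited them, in narrowPeak format on the dm6 build named in the labels. Per the descriptions deposited beside the files, each replicate's list was made from its alignment and a control, the pooled list from both alignments and a control, and the IDR list from those 3 lists. The signal of a peak, and the offset of its summit from the peak start, are the authors' deposited values. Not given in the sources used here are the aligner, the peak caller and the IDR threshold.

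The 5744 IDR peaks were joined where 1 bp or more was shared, and the strongest peak gave a region its summit and signal. The offset pointed past the peak end for 4 peaks and was set to the last base. Genes came from Ensembl release 115 (13945 protein-coding genes with 19252 TSS positions on the 6 arms) and sequence from the RefSeq copy of the same assembly, and 0 peaks lay beyond an arm's end. Replicate values are those of the strongest peak on the region. Words were sought within 100 bp of the summit and of points 500 bp to either side. Python 3.11.15, pandas 2.3.3, numpy 2.4.6 and scipy 1.17.1 were used, and the code was tested on simulated data.

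With 1 group and 2 replicates no test was made. Wilson intervals (95%) cover counting error only, and regions are not replicates. The rule for named regions took the 20 strongest, all within 5 kb of the E(spl) complex, the 5 strongest per noncoding biotype, the strongest per gene list, the 5 gaps with most regions, the 3 strongest missing from each replicate and the 5 strongest with CACGTG or CACGCG. The members, lists and words were chosen with earlier results of these data known. The microRNA genes, noncoding starts, word distances, hexamers, threshold neighbours and the gap between scyl and Dyro were chosen after values were seen. Sequences on arm 2R were left out, and 1 gap that the rule names is not reported here.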

Additional observations from a re-analysis of the deposited data

How the results depend on the processing

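Of 63 recomputed values 52 stayed within their interval (a count, within a factor of 1.5) and 11 moved. The share of regions that are intergenic was 10.1% with a TSS distance over 500 bp, 6.30% with one over 2 kb and 6.93% outside genes of every biotype, where the share at noncoding genes is 0 by construction. Keeping the IDR peaks above their median signal left 220 intergenic regions, with a median signal of 425.3 and 97.7% of them with a strong peak in both replicates. A cut on signal raises the median by construction and favours regions with strong replicate peaks. Without that cut, the share with a peak in both replicates was 58.5% where a strong peak had to cover at least 50% of the region. It was 98.2% with any listed peak. E(spl) words were at 6.83% of summits within 50 bp and 21.2% within 250 bp. Taking the strongest peaks of 1 replicate alone gave 429 and 445 regions, 8.16% and 8.59% of all, with noncoding genes at 17.2% and 15.3%, words at 9.56% and 9.89% and developmental flanking genes at 12.6% and 11.0% (without replicate 1, then without replicate 3). No paired analysis was possible because the samples form 1 group and no result comes from a test. Depth is unknown, so a region missing from a replicate's list may lie below what that list could show.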

Other observations

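Genes that flank an intergenic region had a promoter region in the IDR list in 38.2% of cases (207 of 542), against 27.8% of all protein-coding genes (3877 of 13945). The difference was not tested, and the 2 sets are unlike, since 482 of the 542 border a gap over 2 kb. All words of 6 letters found at intergenic summits, 2080 when both strands are joined, were ranked by their number at summits over their mean number in the side windows, with 5 added to each. CGCTAG was at 21 intergenic summits, against 7 and 6 of the left and right windows. ACTGTA was at 61, against 32 and 24, and CTGTAC at 37, against 17 and 16. CAGGAC stood last, at place 2080, with 4 intergenic summits against 24 and 16 of the side windows. In this ranking CACGCG stood at place 137 and CACGTG at place 586. The ranking was made after the other values were seen, and no value in it was tested.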
